A study of Mus musculus with 138 samples.

Results

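The genes described here are 47 genes of the DNA replication machinery, named in a list of replication licensing, polymerase, clamp and nucleotide supply genes, and all 47 were found among the 25900 genes of both count tables. The libraries hold polyadenylated RNA of mouse embryos at the 2-cell stage, 1 library per plate well, from 2 experiments on SMARCA5, an ATPase that slides nucleosomes. In the first experiment, 28 libraries came from Smarca5 +/- embryos of females without maternal Smarca5 mated to wild-type males, called maternal deletion here. The other 22 came from Smarca5 +/+ embryos and serve as wild type. Titles in either group name matKO females, and the promoter or Cre line behind the deletion is not given in the sources used here. Maternal loss and the embryo's own genotype therefore cannot be told apart. In the second experiment, wild-type embryos went through TrimAway, a method that destroys a protein within hours by way of an injected antibody and the ubiquitin ligase TRIM21. It was begun in zygotes. There were 31 libraries of embryos injected with the antibody to SMARCA5, 20 of embryos injected with IgG and 15 of uninjected embryos, collected at least 24 hours after injection. Replicate numbers name collections of pooled embryos, which the study calls technical replicates, so p-values measure the spread between these libraries. The ages of the animals are not given in the sources used here. These 116 libraries held 109007 to 12004992 counts each (median 1469197). The wild-type libraries were the shallowest (median 545264) and the maternal deletion libraries were deeper (median 1618485).

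Replication starts when the origin recognition complex marks DNA and, with Cdc6 and Cdt1, loads the ring of Mcm proteins that will become the helicase. Geminin, the product of Gmnn, binds Cdt1 and keeps origins from being loaded again within a cycle. The kinase Cdc7 with its partner Dbf4, and the factors Mcm10, Cdc45 and GINS, then turn the loaded ring into a moving helicase, and polymerases, clamp, clamp loader, single-strand binding protein, flap nuclease and ligase copy the strands. The mouse egg stores messenger RNA for its first divisions, and most of that store is degraded while the embryo's own genome is switched on at the 2-cell stage.

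Many replication genes are known targets of E2F factors, and CCAAT boxes, bound by NF-Y, are common in promoters of cell cycle genes. RefSeq promoter windows of GRCm38.p6, which run from 250 bases before to 50 after a gene's start, were found for 39 of the 47 members. Both strands were searched for the E2F letters TTTCCCGC, TTTCGCGC, TTTGCCGC and TTTGGCGC and for CCAAT, and a gene with several windows was counted once if any window held a match. The E2F letters stood in 15 of 39 members with a window (38.5%) and in 704 of 27025 genes of the table (2.60%). CCAAT stood in 23 of 39 members (59.0%) and in 11096 of the 27025 genes (41.1%). Among members that fell after maternal deletion, 5 of 13 held the E2F letters and 9 of 13 held CCAAT. Of the 4 that rose, 1 held the E2F letters and 1 held CCAAT. Of the 22 other members with a window, which were not called or not tested there, 9 held the E2F letters and 13 held CCAAT. The windows shown are those of 5 of the 6 members whose change after maternal deletion passed the test under every alternative that was run. They are Mcm6, Cdc45 and Rpa2, which fell, and Orc5 and Rpa1, which rose. Gmnn is the sixth. Capitals mark matches to either motif, on either strand.
Mcm6: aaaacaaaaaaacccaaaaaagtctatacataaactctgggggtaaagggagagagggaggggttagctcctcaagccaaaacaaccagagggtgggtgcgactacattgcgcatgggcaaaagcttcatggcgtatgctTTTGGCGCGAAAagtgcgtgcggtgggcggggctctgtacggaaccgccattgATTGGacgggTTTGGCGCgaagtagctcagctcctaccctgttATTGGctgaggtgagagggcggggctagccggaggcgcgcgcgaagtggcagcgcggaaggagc
Cdc45: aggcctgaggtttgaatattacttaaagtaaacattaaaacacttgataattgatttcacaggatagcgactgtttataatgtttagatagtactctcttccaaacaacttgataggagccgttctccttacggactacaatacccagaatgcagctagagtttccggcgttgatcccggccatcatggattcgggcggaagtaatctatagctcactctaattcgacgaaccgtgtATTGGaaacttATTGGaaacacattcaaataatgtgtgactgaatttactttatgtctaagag
Rpa2: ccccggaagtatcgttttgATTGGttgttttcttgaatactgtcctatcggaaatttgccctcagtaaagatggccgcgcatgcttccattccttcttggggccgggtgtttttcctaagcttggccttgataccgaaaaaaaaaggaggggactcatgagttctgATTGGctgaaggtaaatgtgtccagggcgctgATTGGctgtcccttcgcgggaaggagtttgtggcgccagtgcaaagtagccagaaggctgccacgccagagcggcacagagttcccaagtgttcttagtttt
Orc5: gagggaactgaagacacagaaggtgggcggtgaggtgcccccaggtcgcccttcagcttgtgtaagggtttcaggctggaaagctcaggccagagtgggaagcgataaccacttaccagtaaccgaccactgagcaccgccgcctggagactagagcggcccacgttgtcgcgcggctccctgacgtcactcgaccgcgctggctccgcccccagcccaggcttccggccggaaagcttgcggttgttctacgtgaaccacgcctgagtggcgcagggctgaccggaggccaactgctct
Rpa1: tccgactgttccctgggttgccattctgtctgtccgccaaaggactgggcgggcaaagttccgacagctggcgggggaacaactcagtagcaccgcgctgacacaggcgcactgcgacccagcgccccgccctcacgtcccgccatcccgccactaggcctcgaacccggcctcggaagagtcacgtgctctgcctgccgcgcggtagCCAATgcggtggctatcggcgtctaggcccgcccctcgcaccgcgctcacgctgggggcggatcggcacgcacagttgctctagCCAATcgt
The Mcm6 window (chr1:128359656-128359955, minus strand) held 3 E2F matches, 2 of which overlap in a single run of capitals, and 2 CCAAT matches. The Cdc45 window (chr16:18811923-18812222, minus strand) held 2 CCAAT matches and no E2F match. Rpa2 (chr4:132768110-132768409, plus strand) held 3 CCAAT matches, Rpa1 (chr11:75348334-75348633, minus strand) held 2, and Orc5 (chr5:22550289-22550588, minus strand) held neither motif. A match says only that these letters are in the window.

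Nearly all members were detected in every group, at levels that differed widely between genes. A median wild-type library had more than 3 counts for 41.5 of the 47 members, and a median maternal deletion library for 38. The median was 46 in uninjected, 45.5 in IgG and 44 in anti-SMARCA5 libraries. Levels are CPM (counts put on a common library size), scaled between libraries by TMM factors, and are given per kilobase (kb) of exon where genes are compared. In wild-type embryos Gmnn had the highest median level, 387.9 CPM per kb, ahead of Orc6, a subunit of the origin recognition complex, at 122 CPM per kb. Dbf4 followed at 59.2 and Cdc45 at 54.8 CPM per kb. The same 4 genes led in uninjected embryos, with Gmnn at 260.2, Orc6 at 152, Dbf4 at 80.8 and Cdc45 at 62.2 CPM per kb. In maternal deletion embryos the order was Orc6 at 129.5, Dbf4 at 106.9 and Gmnn at 82.5 CPM per kb. Some subunits of the polymerases were among the lowest, as were Rfc2 and Lig1, at 0.733 and 1.07 CPM per kb in wild type. Pold3, another polymerase subunit, was at 26.4 CPM per kb in wild type. Pold1, the catalytic subunit of polymerase delta, was at a median of 0 in wild-type and maternal deletion libraries and of 0.814 CPM per kb in uninjected ones. Pole, the catalytic subunit of polymerase epsilon, reached 1.35 CPM per kb in wild-type and 2.19 in uninjected libraries.

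**Figure D1:**
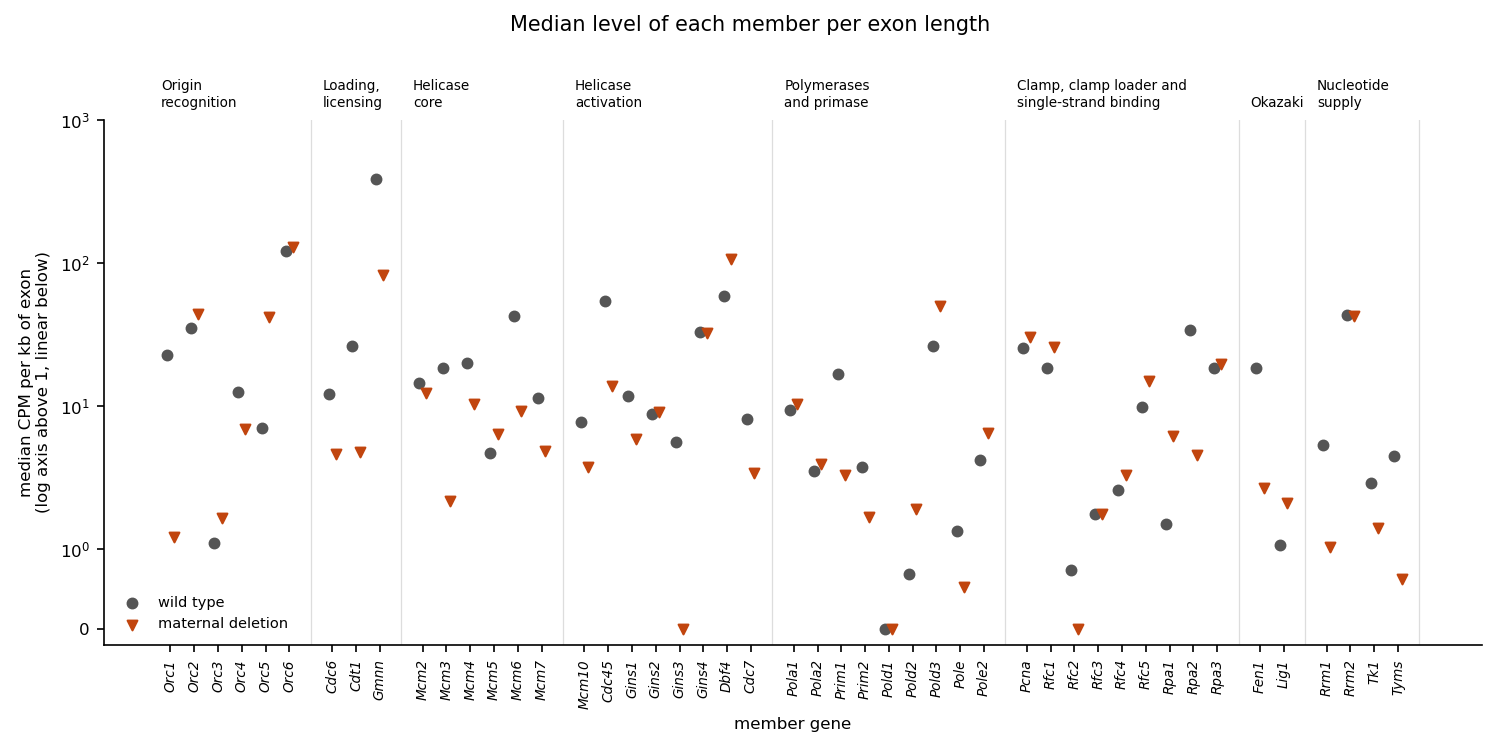
Median level of each member in CPM per kb of exon (vertical axis, logarithmic above 1 and linear below) in wild-type libraries (grey circles, n = 22) and maternal deletion libraries (red triangles, n = 28), with members grouped by role along the horizontal axis. Gmnn lies highest in wild type at 387.9 and at 82.5 in maternal deletion libraries, while Orc6 lies at 122 and 129.5.

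The labels were checked on the targeted RNA first. Smarca5 had a median of 328 CPM in wild-type libraries (150.9 to 810.1) and 95.6 CPM in maternal deletion libraries (3.04 to 340.7), and fell by 2.06 on the log2 scale (SE 0.31, edgeR adjusted p = 2.63e-07). TrimAway acts on the protein, so Smarca5 RNA does not check those labels. Trim21 RNA had a median of 1442 CPM in anti-SMARCA5 and 0 in uninjected libraries, and 12 of 20 IgG libraries had 3 counts or fewer. These were 10 of 10 IgG libraries in collection 1 and 2 of 10 in collection 3, so the IgG libraries of collection 1 do not carry the Trim21 RNA that anti-SMARCA5 libraries do. The maternal deletion library of collection 2 in well A04 went against its label, with Smarca5 at 265.8 CPM and the oocyte gene Gdf9 at 18.7 CPM, where the other libraries of its group had medians of 95.1 and 4760 CPM. Wild-type libraries in wells G05 and H05 had low Smarca5, at 159.8 and 150.9 CPM. The anti-SMARCA5 library of collection 2 in well C02 had no Trim21. The wells without an embryo held 453 to 1875 counts, of which 0 to 16 were on members. No table line held a spike-in sequence, so all values are shares of a library's RNA, and less RNA of a gene cannot be told apart from more RNA of others.

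Markers of stored oocyte RNA were higher in maternal deletion libraries. The summed level of 13 oocyte and maternal genes had a median of 1166 CPM in wild-type (299 to 4437) and 12680 CPM in maternal deletion libraries (685 to 33500), and 13 of 13 had a median above 1 CPM in the latter. Of 13 genes of the 2-cell stage found in the tables, the summed level was 719 CPM in wild type (242.5 to 1884) and 356 CPM in maternal deletion libraries (1.56 to 2402). Of these, 10 had a lower median in maternal deletion libraries, and Tdpoz1 and Tdpoz4 went from 46.9 and 47.4 to 0 CPM. The other 3 had a higher one, Tcstv1 (37.3 and 97.3 CPM), Dub1 (1.14 and 1.77 CPM) and Dub3 (0.194 and 0.588 CPM). Granulosa and cumulus genes summed to a median of 0 CPM in wild-type (0 to 11.1) and 22.3 CPM in maternal deletion libraries (0 to 91.4). Of the 12 genes, 10 had a median of 0 in each group, Fshr, Amh and Foxl2 among them. The other 2 were Star, with medians of 0 CPM in wild-type and 4.64 CPM in maternal deletion libraries, and Cyp19a1, with 0 and 1.78 CPM. Sperm genes summed to a median of at most 2.77 CPM in any group. For 6 genes of the trophectoderm and inner cell mass the summed medians were 69.4 CPM in wild-type and 42.9 CPM in maternal deletion libraries. Gata4 had medians of 59.2 and 17.4 CPM, while Krt18 (0 and 17.1 CPM) and Krt8 (0 and 3.88 CPM) went the other way. The part of these differences in the member results was not tested.

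After maternal deletion part of the replication machinery was lower and a smaller part higher. Of 43 members with enough counts to test, 14 fell and 4 rose at an edgeR adjusted p under 0.05, and 25 did not pass. Members made up a median of 0.606% of a wild-type library's counts (0.379 to 0.752) and 0.361% of a maternal deletion library's (0.204 to 0.570). The gap was wider in collection 2 (0.628% and 0.351%) than in collection 1 (0.434% and 0.384%), a difference that was not tested. The background of called genes was high in this comparison, at 56.6% of 8518 genes, with 30.3% higher and 26.4% lower. The share of members called, 41.9%, lay below the background, and the share called lower, 32.6%, near it. The members' median log2 fold change was -0.40, against 0.18 over all genes tested. With total counts in place of TMM 2 members rose and 15 fell, among 2199 genes that rose and 2623 that fell. Gins3, Pold1, Pold2 and Rfc2 did not pass the filter on low counts and were not tested. Without the wells A04, G05 and H05, 18 of 44 members were called, against 60.1% of all genes. Within collection 1 alone 12 of 33 members passed, against 43.8% of all genes, and within collection 2 alone 12 of 46 passed, against 39.9%.

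**Figure D2:**
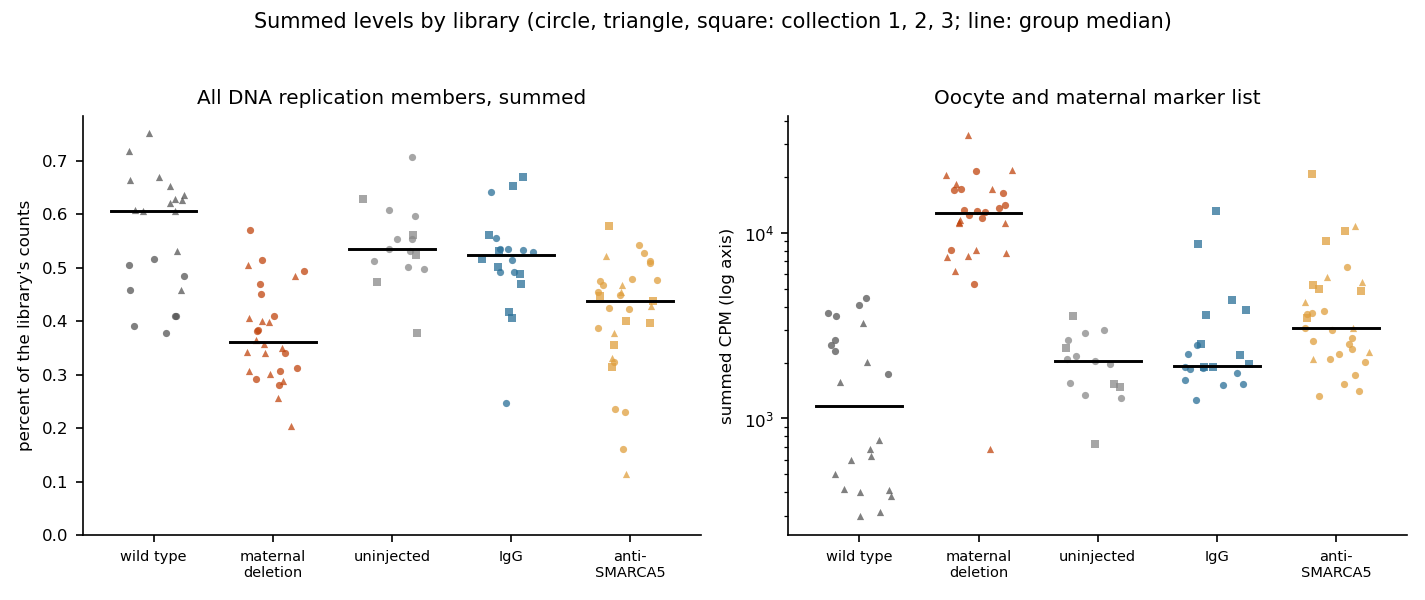
Left, the members' summed counts as a percent of each library's counts (linear axis from 0). Right, the summed CPM of 13 oocyte and maternal marker genes (log axis). Each point is a library, shapes mark the collections, and lines are group medians. Member medians lie at 0.606% in wild type and 0.361% in maternal deletion, and the oocyte list has medians of 1166 and 12680 CPM there.

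The 3 genes that control loading of the helicase all fell. Gmnn (chr13:24751845-24761923, minus strand) ranged from 326.6 through a median of 568 to 1805 CPM in wild-type libraries, and from 1.09 through 121 to 558 CPM in maternal deletion libraries. Of the 28 maternal deletion libraries, 28 lay below the wild-type median and 25 below the lowest wild-type library, though the groups overlapped. The change was a 4.19-fold fall (log2 -2.07, SE 0.33, adjusted p = 1.28e-06). Cdt1, the loading factor that geminin binds, had a wild-type median of 82.6 CPM (0.107 to 190.5) and a maternal deletion median of 15.0 CPM (0 to 168.9), and 25 of 28 libraries lay below the wild-type median. It fell 3.22-fold (log2 -1.69, SE 0.59, adjusted p = 0.0127). Within collection 1 alone Cdt1 did not pass (adjusted p = 0.343), nor did it at a minimum depth of 500000 counts. Cdc6, the ATPase that works with the origin recognition complex, fell by 1.09 on the log2 scale, from a median of 64.0 to 24.4 CPM, and did not pass within collection 2 alone (adjusted p = 0.257).

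The helicase core was split. Mcm3, Mcm6 and Mcm7 fell, while Mcm2, Mcm4 and Mcm5, which are parts of the same ring, did not pass. Mcm6 (chr1:128331591-128359656, minus strand) ranged from 42.4 through 199 to 447.8 CPM in wild-type and from 0 through 43.5 to 286 CPM in maternal deletion libraries. It was below the wild-type median in 27 of 28 libraries, the exception being the library in well A04, and fell 3.65-fold (log2 -1.87, SE 0.39, adjusted p = 9.00e-05). For Mcm3 the median was 69.0 CPM in wild type (0 to 229) and 8.10 CPM in maternal deletion libraries (0 to 152), 13 of which had 3 counts or fewer. Its fall was 4.13-fold (log2 -2.05, SE 0.59, adjusted p = 0.00301), but Mcm3 did not pass within collection 2 alone (adjusted p = 0.0816) or at a minimum depth of 500000 counts (0.0616). Mcm7 had medians of 50.8 and 21.6 CPM and fell 3.55-fold (log2 -1.83, SE 0.38, adjusted p = 8.72e-05). In collection 2 the wild-type median was 110.9 and the maternal deletion median 23.8 CPM. In collection 1 they were 21.1 and 19.6 CPM, and Mcm7 did not pass there (log2 -0.42, adjusted p = 0.531). The difference between collections itself did not pass either (adjusted p = 0.221). Mcm2 had medians of 101 and 86.5 CPM and a log2 difference of 0.02 (SE 0.40), Mcm5 of 0.16 (SE 0.59) and Mcm4 of -0.51 (SE 0.35).

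Among the genes that activate the helicase, Cdc45 and Mcm10 fell and Dbf4 rose. Cdc45 (chr16:18780447-18811987, minus strand), which joins the Mcm ring and GINS in the moving helicase, ranged from 16.6 through 192 to 324 CPM in wild-type and from 0 through 48.2 to 228 CPM in maternal deletion libraries. It was below the wild-type median in 27 of 28 libraries and below every wild-type library in 8. The fall was 3.68-fold (log2 -1.88, SE 0.39, adjusted p = 8.16e-05). Collection 1 alone gave -2.31 and collection 2 alone -1.56 on the log2 scale. Mcm10 fell by 1.04 on the log2 scale (adjusted p = 0.0333). Mcm10 did not pass within collection 1 or collection 2 alone, at a minimum depth of 500000 counts or without the 3 wells named above. Dbf4, the activating partner of the kinase Cdc7, went from a median of 516 CPM in wild type (241 to 1334) to 933 CPM (147 to 2551), a 1.56-fold rise (log2 0.64, SE 0.23, adjusted p = 0.0165). With total counts in place of TMM the rise in Dbf4 was 0.37 and did not pass (adjusted p = 0.0822), nor did Dbf4 pass within collection 1 (0.0892) or collection 2 alone (0.0564), at the higher minimum depth (0.0859) or with no filter on low counts (0.0550). Cdc7 and the 3 GINS genes tested (Gins1, Gins2 and Gins4) did not pass, with log2 differences of -0.53, -0.94, -0.33 and -0.37. Gins3 passed the filter only in some alternatives. In collection 2 its median was 88.5 CPM in wild type (0 to 138) and 0 CPM in maternal deletion libraries (0 to 82.8). In collection 1 both medians were 0. Over both collections 19 of 28 maternal deletion and 8 of 22 wild-type libraries had 3 Gins3 counts or fewer. In maternal deletion libraries Gins3 was thus near the floor, so no size of fall is read from those alternatives.

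Origin recognition genes moved in different directions. Orc5 (chr5:22486485-22550429, minus strand) had a wild-type median of 43.6 CPM (2.36 to 476) and a maternal deletion median of 259 CPM (26.1 to 1287). Above the wild-type median lay 26 of the 28, and Orc5 rose 2.82-fold (log2 1.49, SE 0.43, adjusted p = 0.00295). Its level in wild type differed between collections, with medians of 272 CPM in collection 1 and 25.4 CPM in collection 2, against 423 and 120.2 CPM in maternal deletion libraries. The rise was 0.97 within collection 1 and 2.25 within collection 2 on the log2 scale. Orc4 fell by 1.07 on the log2 scale, from a median of 93.8 to 51.5 CPM, but did not pass within collection 1 (adjusted p = 0.282). Orc1, the subunit with ATPase activity that is most tied to the cell cycle, had a median of 79.0 CPM in wild type (0 to 298) and 4.21 CPM in maternal deletion libraries (0 to 322). In 4 of 28 maternal deletion libraries it lay above the wild-type median, and the log2 difference of -1.25 did not pass (adjusted p = 0.0961). With the collection as a replicate block Orc1 passed (log2 -1.53, adjusted p = 0.0390). Orc6 had medians of 302 and 320 CPM and a log2 difference of 0.05 (SE 0.22).

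**Figure D3:**
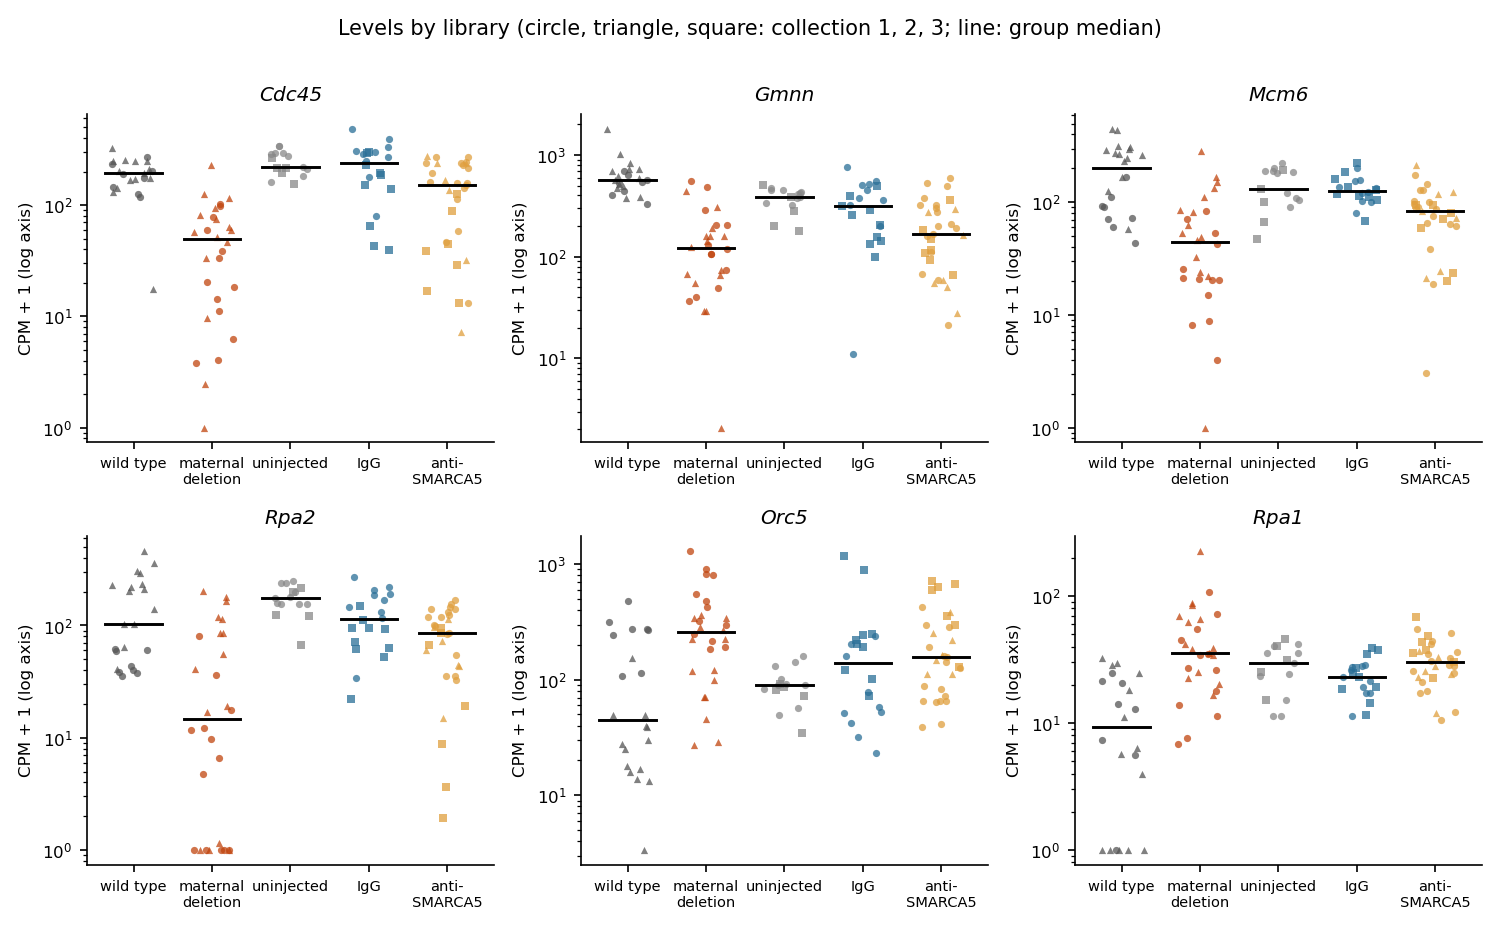
CPM + 1 on a log axis for 6 members in each library of the 5 groups. Shapes mark collections 1 to 3 and lines are group medians. Cdc45, Gmnn, Mcm6 and Rpa2 lie lower in maternal deletion than in wild type, Orc5 and Rpa1 lie higher, and all 6 overlap between groups.

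At the fork, the subunits of the single-strand binding protein RPA went in opposite directions. Rpa2 (chr4:132768332-132778752, plus strand) ranged from 34.5 through 102 to 456 CPM in wild type. In maternal deletion libraries it ranged from 0 through 13.6 to 202 CPM, with 3 counts or fewer in 11 of 28 against 0 of 22, and 17 lay below every wild-type library. It fell 3.82-fold (log2 -1.93, SE 0.58, adjusted p = 0.00433). The Rpa2 medians in wild type were 41.0 CPM in collection 1 and 214.8 CPM in collection 2. Those of maternal deletion libraries were 5.60 and 55.1 CPM. Rpa1 (chr11:75298166-75348324, minus strand), the large subunit, had medians of 8.31 CPM in wild type (0 to 31.8) and 34.4 CPM in maternal deletion libraries (5.90 to 224). It was higher than every wild-type library in 17 of 28, and rose 3.78-fold (log2 1.92, SE 0.50, adjusted p = 0.00100). Of the wild-type libraries, which were shallower, 10 of 22 had 3 Rpa1 counts or fewer. Rpa3 did not pass (log2 0.34, SE 0.59). The clamp Pcna had medians of 61.3 and 72.5 CPM and a log2 difference of 0.10 (SE 0.31), and no tested subunit of the clamp loader passed (Rfc1, Rfc3, Rfc4 and Rfc5, log2 0.00 to 0.39). With the replicate block Rfc1 passed (log2 0.49, adjusted p = 0.0373).

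Most polymerase genes did not pass. Prim1, the catalytic subunit of primase, went from a median of 65.3 CPM (14.1 to 192) to 12.8 CPM (0 to 141), and 15 of 28 maternal deletion libraries lay below every wild-type library. The fall was 2.81-fold (log2 -1.49, SE 0.51, adjusted p = 0.0107). Prim1 did not pass within collection 1 or collection 2 alone, or at a minimum depth of 500000 counts. Pold3, an accessory subunit of polymerase delta, rose from a median of 122 CPM (53.6 to 265) to 232 CPM (72.9 to 705), 1.70-fold (log2 0.77, SE 0.22, adjusted p = 0.00254). With total counts in place of TMM the rise in Pold3 was 0.46 (adjusted p = 0.0678). Fen1, the flap nuclease of Okazaki fragment maturation, was lower than the wild-type median in 27 of 28 libraries and fell 3.92-fold (log2 -1.97, SE 0.61, adjusted p = 0.00523). Its median went from 44.4 to 6.52 CPM, and 78.8% of its exonic bases are shared with the antisense gene Gm10143. Fen1 did not pass within collection 2 alone (adjusted p = 0.0525) and had too few counts to be tested within collection 1. Rrm1, the large subunit of ribonucleotide reductase, fell 3.50-fold (log2 -1.81, SE 0.49, adjusted p = 0.00162), from a median of 59.4 CPM (2.83 to 207) to 11.3 CPM (0 to 132). Within collection 1 alone Rrm1 did not pass (adjusted p = 0.122). Rrm2, the small subunit, had medians of 120 and 118 CPM and a log2 difference of 0.02 (SE 0.24). Tk1, the thymidine kinase of the salvage route, fell by 1.34 on the log2 scale (adjusted p = 0.0426) and did not pass with the replicate block, where Tk1 was 1 of 3 members whose call changed. Neither did Tk1 pass within collection 2 alone or at a minimum depth of 500000 counts. Tyms, which makes thymidylate, had medians of 27.2 and 3.77 CPM and did not pass (log2 -1.43, adjusted p = 0.0541).

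In the TrimAway experiment, anti-SMARCA5 embryos had lower levels of several replication factors than uninjected embryos. Of 46 members tested, 11 fell and 4 rose, while 31 did not pass. The background here was 27.9% of 10750 genes, with 17.5% higher and 10.4% lower, and 23.9% of the members tested were called lower. The median log2 fold change was -0.24 for members and 0.13 for all genes. Total counts in place of TMM moved the median of all genes to -0.29 and turned the split of called genes from 1885 higher and 1114 lower to 409 higher and 1874 lower. The members' split then went from 4 higher and 11 lower to 0 higher and 13 lower. Without collection 1, which left 14 anti-SMARCA5 and 5 uninjected libraries, 0 members and 1 of 10544 genes were called by edgeR, with 2261 genes at an unadjusted p under 0.05. Without the anti-SMARCA5 library in well C02, which had no Trim21 RNA, 11 members fell and 3 rose, among 2998 of 10699 genes called. Members took a median of 0.438% of the counts in anti-SMARCA5 and 0.535% in uninjected libraries.

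In that comparison 4 of the 6 genes of the helicase core fell. Mcm2 went from a median of 98.8 CPM in uninjected (45.9 to 150) to 52.2 CPM in anti-SMARCA5 libraries (4.68 to 123), and 28 of 31 lay below the uninjected median (log2 -0.92, SE 0.22, adjusted p = 0.00300). Mcm3 went from 70.3 CPM (20.02 to 148) to 23.2 CPM (0 to 105), the strongest fall of the ring (log2 -1.29, SE 0.36, adjusted p = 0.00912). Mcm6 fell from a median of 129.7 to 83.4 CPM (log2 -0.89, SE 0.28, adjusted p = 0.0172). Mcm7 fell from 53.6 to 32.9 CPM (log2 -0.78, SE 0.29, adjusted p = 0.0419). Cdt1 fell from a median of 64.6 CPM (25.7 to 183) to 30.6 CPM (0 to 91.1), 2.34-fold (log2 -1.23, SE 0.35, adjusted p = 0.00983). Gmnn ranged from 177 through 381 to 509.6 CPM in uninjected and from 20.1 through 165 to 592 CPM in anti-SMARCA5 libraries, and fell 1.91-fold (log2 -0.93, SE 0.30, adjusted p = 0.0177). All of these groups overlapped. Embryos that received IgG were also below uninjected ones in these genes, and none of those differences passed. They were -0.50 for Mcm2, -0.77 for Mcm3, -0.12 for Mcm6 and -0.47 for Mcm7 on the log2 scale. For Cdt1 and Gmnn they were -0.55 and -0.20.

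Cdc45 ranged from 154 through 218 to 339 CPM in uninjected libraries and from 6.23 through 152 to 273 CPM in anti-SMARCA5 libraries, 16 of 31 of which lay below every uninjected library. It fell 1.82-fold (log2 -0.86, SE 0.32, adjusted p = 0.0396). Among anti-SMARCA5 libraries collection 3 had the lowest Cdc45 median, 37.3 CPM against 160.5 in collection 1 and 165.5 in collection 2. Rpa2 was below the uninjected median of 176 CPM in 31 of 31 libraries, with a median of 84.5 CPM (0.927 to 167), and fell 2.32-fold (log2 -1.21, SE 0.31, adjusted p = 0.00528). Prim2, the large subunit of primase, fell from a median of 28.3 to 12.2 CPM (log2 -1.18, SE 0.38, adjusted p = 0.0185). Mcm10 fell by 0.90 on the log2 scale (adjusted p = 0.0370). Pold2 had the largest fall (log2 -1.63, SE 0.55, adjusted p = 0.0231) from few counts, with medians of 10.3 and 1.85 CPM and 18 of 31 anti-SMARCA5 libraries at 3 counts or fewer. Mcm10 and Pold2 did not pass with the replicate block, while Gins3 (log2 -1.82), Fen1 (-1.21) and Rrm1 (-1.21) did, at adjusted p of 0.0177, 0.0362 and 0.0242. IgG against uninjected gave -0.11 for Cdc45, -0.51 for Rpa2 and -0.34 for Prim2 on the log2 scale. It gave -0.36 for Mcm10 and -1.13 for Pold2, and none of these passed.

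The 4 rises were Orc5, Dbf4, Pold3 and Orc2. Orc5 went from a median of 88.9 CPM (33.7 to 160) to 158 CPM (38.0 to 713), with 14 of 31 libraries above every uninjected one (log2 1.24, SE 0.32, adjusted p = 0.00489). Dbf4 went from 706 to 1146 CPM (log2 0.88, SE 0.25, adjusted p = 0.00959). Pold3 (log2 0.70, SE 0.26, adjusted p = 0.0399) and Orc2 (log2 0.55, SE 0.21, adjusted p = 0.0495) lay near the threshold. None of Orc5, Dbf4, Pold3 and Orc2 passed with total counts in place of TMM, and Orc2 lost its call under each of the 12 alternatives run. Without collection 1 or without collection 3 none of the 4 passed either. In collection 1 the medians of uninjected and anti-SMARCA5 libraries were 90.2 and 86.8 CPM for Orc5, and 124.3 and 116.2 CPM for Pold3. Those of Dbf4 were 644.9 and 686.3 CPM, and those of Orc2 186 and 214.9 CPM. In collection 3 they were 80.35 and 590.6 CPM for Orc5, and 100.1 and 348 CPM for Pold3. Dbf4 was at 747.4 and 2322 CPM there, and Orc2 at 146.1 and 502.6 CPM. Over both collections, embryos that received IgG were also above uninjected ones in these 4 genes. The log2 differences were 1.23 for Orc5 (SE 0.39), 0.73 for Dbf4 (SE 0.26), 0.22 for Pold3 (SE 0.18) and 0.77 for Orc2 (SE 0.24), and none of these passed. With the replicate block the Orc5 difference was 0.74. In collection 1 the IgG medians of Orc5 (54.6 CPM) and Pold3 (111.2 CPM) lay below the uninjected ones. Those of Dbf4 and Orc2 were 679.9 and 188.3 CPM. In collection 3 the IgG medians were 211.3 CPM for Orc5, 1182 for Dbf4, 166.9 for Pold3 and 312.8 for Orc2.

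**Figure D4:**
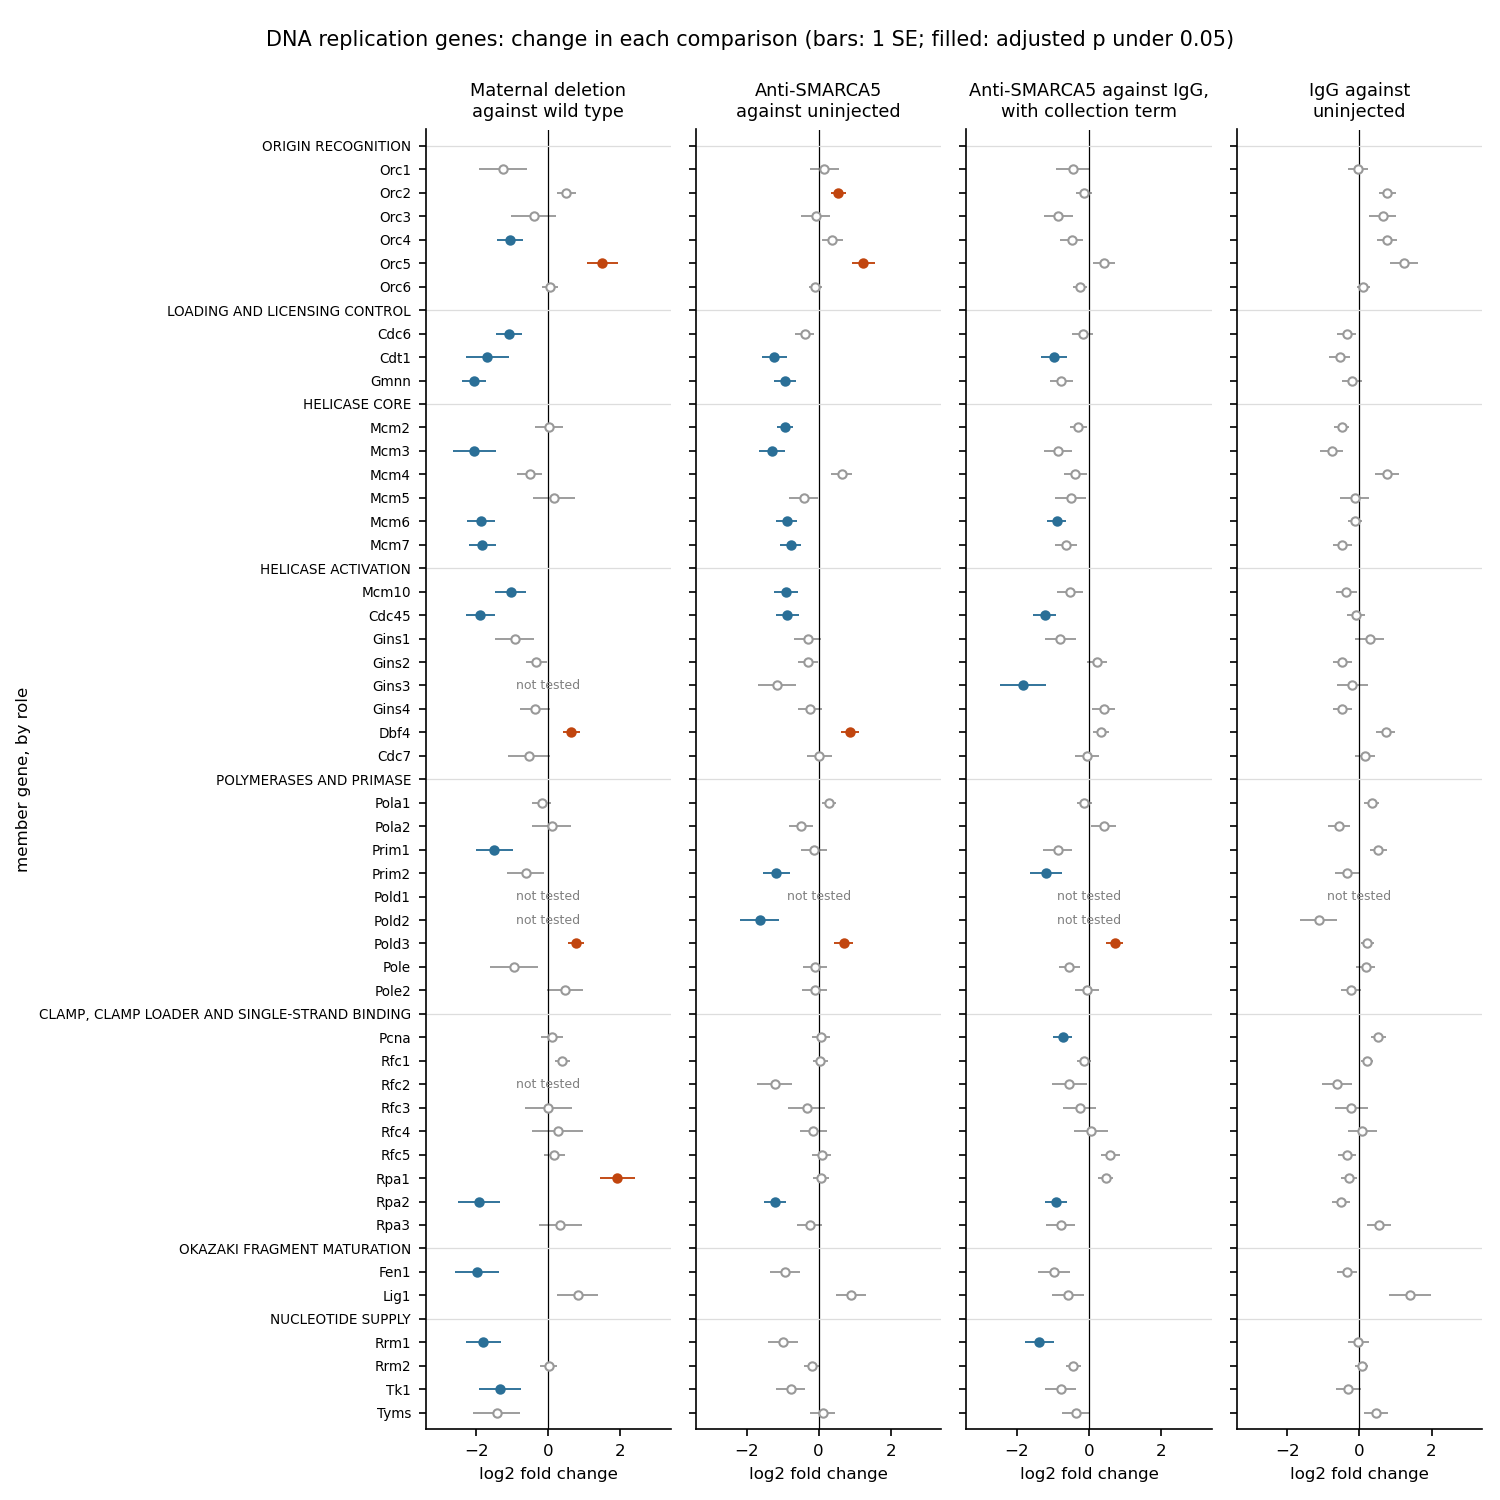
Log2 fold change (horizontal axis) of each member by role in 4 comparisons. The panel of anti-SMARCA5 against IgG shows the fit with the replicate block, and the other panels show fits without it. Without the block 0 of 45 members passed against IgG. Bars are 1 SE, filled points passed at an adjusted p under 0.05 (blue lower, red higher), and open grey points did not. The maternal deletion panel has 14 filled points to the left and 4 to the right, and the panel of IgG against uninjected has none.

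Against IgG, the injected control, no member passed without regard to collection. EdgeR called 0 of 45 members, with 8 at an unadjusted p under 0.05. DESeq2 called 1, Mcm6, beside 999 of 10447 genes. Without well C02 edgeR again called 0 of 45, with 12 at an unadjusted p under 0.05, among 521 of 10381 genes called. Without collection 1, where IgG libraries lack Trim21 RNA, 0 of 43 members passed in edgeR, with 5 at an unadjusted p under 0.05. The background of that fit was 0% of 9402 genes, with 1210 at an unadjusted p under 0.05. With all collections the edgeR background was 3.03% of 10447 genes. With the collection as a replicate block, which compares embryos of the same collection, the background became 25.8%, with 12.1% higher and 13.6% lower, and 9 members passed. Of these, 8 fell and 1 rose, so 17.8% of members tested were called lower. The median log2 fold change of members was -0.48 with the block and -0.29 without it, against -0.01 and 0.04 for all genes. IgG libraries were kept from collections 1 and 3 only. The block gave 9 members again when only those collections were used, beside 2835 of 10100 genes. With total counts in place of TMM the blocked fit called 4 of 45 members, Mcm6, Cdc45, Pcna and Rrm1. That fit called 1718 of 10447 genes, 555 higher and 1163 lower. In that scaling the split of called genes without the block went from 181 higher and 136 lower to 17 higher and 47 lower.

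In the blocked comparison with IgG, Cdc45 fell 2.35-fold (log2 -1.24, SE 0.33, adjusted p = 0.00801). By collection, its median went from 293.5 CPM in IgG to 160.5 CPM in anti-SMARCA5 libraries of collection 1, and from 168 to 37.3 CPM in collection 3. Without the block the difference in Cdc45 was -0.75 (SE 0.32, adjusted p = 0.133). Rrm1 fell 2.60-fold (log2 -1.38, SE 0.39, adjusted p = 0.0111), with medians of 99.0 CPM in IgG (24.6 to 156) and 38.4 CPM in anti-SMARCA5 libraries (0 to 145). Gins3, a GINS subunit, fell 3.55-fold (log2 -1.83, SE 0.63, adjusted p = 0.0295), and 10 of 31 anti-SMARCA5 libraries had 3 counts or fewer against 3 of 20. Mcm6 fell 1.87-fold (adjusted p = 0.0146), and 26 of 31 libraries lay below the IgG median of 124 CPM. The other falls were Prim2 (log2 -1.19), Cdt1 (-0.97), Rpa2 (-0.93) and Pcna (-0.72), at adjusted p of 0.0439, 0.0463, 0.0243 and 0.0373. Pcna and Tyms have processed copies in GENCODE (Pcna-ps1, Pcna-ps2 and Tyms-ps), and the sources used here do not give the rule for reads with more than 1 match, so their counts are uncertain. Pold3 rose 1.64-fold (log2 0.71, SE 0.23, adjusted p = 0.0226).

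Oocyte and maternal genes summed to medians of 1927 CPM in IgG (1264 to 13090), 2031 CPM in uninjected (729 to 3574) and 3080 CPM in anti-SMARCA5 libraries (1320 to 20750), and all 13 listed genes had counts in each group. Genes of the 2-cell stage summed to 827 CPM in IgG, 438 CPM in uninjected and 860 CPM in anti-SMARCA5 libraries. The part of these differences in the member results was not tested.

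The comparison of IgG with uninjected embryos gave no called member in edgeR. It pools IgG libraries of collection 1, which lack Trim21 RNA, with those of collection 3, where Trim21 had a median of 320.3 CPM. In edgeR 0 of 46 members passed, with 12 at an unadjusted p under 0.05, and the background was 0% of 9915 genes, of which 1440 had an unadjusted p under 0.05. DESeq2 called 2 members, Orc2 and Orc5, and 206 genes. Cdc45 differed by -0.11 (SE 0.25), from a median of 218 CPM in uninjected to 239 CPM in IgG libraries (38.6 to 483). The comparisons of anti-SMARCA5 with uninjected and of IgG with uninjected share their uninjected libraries, and both antibody comparisons share the anti-SMARCA5 libraries.

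Values of single members can be set side by side across the comparisons. Cdc45 changed by -1.88 after maternal deletion, -0.86 against uninjected and -1.24 against IgG with the block. For Mcm6 these values were -1.87, -0.89 and -0.90, for Rpa2 -1.93, -1.21 and -0.93, and for Cdt1 -1.69, -1.23 and -0.97. Pold3 was higher by 0.77, 0.70 and 0.71. Rpa1, by contrast, changed by 1.92 after maternal deletion, 0.06 against uninjected and 0.46 against IgG with the block, and only the first passed. Mcm2 changed by 0.02, -0.92 and -0.30, of which only the value against uninjected passed.

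The difference between the deletion effect and the TrimAway effect (anti-SMARCA5 against IgG) was tested in 1 fit of 4 groups. It passed for 3 of 47 members, 6.38%, where the background was 19.2% of 12035 genes. The deletion effect was lower than the TrimAway effect for Mcm7 (log2 difference -1.60, SE 0.48, adjusted p = 0.0134) and Gmnn (-1.45, SE 0.46, adjusted p = 0.0186). It was higher for Rpa1 (1.49, SE 0.49, adjusted p = 0.0244). With the replicate block the difference passed for Gmnn only (-1.44, adjusted p = 0.0321), beside 1404 of 12035 genes. For Cdc45 the difference was -1.22 (SE 0.51, adjusted p = 0.0796). The experiments were run separately, so differences between them besides the loss of SMARCA5 cannot be told apart from it.

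Whether an effect differed between collections was tested as an interaction. For the deletion, 0 of 43 members passed in edgeR, with 2 at an unadjusted p under 0.05. The background in edgeR was 0.763% of 8518 genes. DESeq2 called 1 member, Gins4 (log2 -2.35), beside 318 of 8518 genes. The 3 largest differences by size were those of Gins4 at -2.09 (SE 0.85), Orc1 at 2.01 (SE 1.28) and Mcm7 at -1.72 (SE 0.72). For TrimAway, 1 of 45 members passed, against a background of 0.366% of 10100 genes. That member was Orc1. Its anti-SMARCA5 median was 129.9 CPM in collection 1 (12.4 to 283) and 13.1 CPM in collection 3 (0.927 to 36.6), while its IgG medians were 79.3 and 78.0 CPM. The TrimAway effect on Orc1 was lower in collection 3 than in collection 1 by 2.90 on the log2 scale (log2 -2.90, SE 0.70, adjusted p = 0.0399). The IgG control differed between these collections, with Trim21 medians of 0 CPM in collection 1 and 320.3 CPM in collection 3. A difference in the control cannot be told apart here from a difference between collections.

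Other genes of replication were read from 3 further lists. Of 36 genes of fork, firing and chromatin assembly in the tables, 29 were tested after maternal deletion, 12 of which fell and 6 rose, where 26.4% of all genes fell and 30.3% rose, with a median log2 fold change of -0.52. Chtf18, a subunit of an alternative clamp loader, fell by 4.14 on the log2 scale, and Dna2, a nuclease and helicase, by 2.17. Pole3, a small subunit of polymerase epsilon, rose by 1.55 and Lrwd1, which binds the origin recognition complex, by 1.34. Against uninjected embryos, 34 of these genes were tested after TrimAway, and 3 fell and 4 rose, beside 10.4% and 17.5% of all genes, with Rnaseh1 at -1.16, Dna2 at -0.95, Top2b at 2.73 and Donson at 1.05. Against IgG 0 of 34 passed in edgeR without the block, and with it 5 fell and 2 rose, beside 13.6% and 12.1% of all genes.

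The second list held genes that control entry into S phase. Of 22 tested after maternal deletion 8 rose and 4 fell, beside 30.3% and 26.4% of all genes, and the median log2 fold change was 0.37. Cdkn1b, an inhibitor of cyclin-dependent kinases, rose by 2.65 and Tfdp1, the partner of E2F factors, by 1.99, while Cdk2 fell by 2.34 and Ccne1, a cyclin that works with Cdk2, by 1.52. In anti-SMARCA5 embryos 9 of 24 rose and 0 fell against uninjected ones, beside 17.5% and 10.4% of all genes, with Cdkn1b at 2.73 and E2f5 at 1.79. Against IgG 2 rose, Cdkn1b by 1.84 (SE 0.53, adjusted p = 0.0437) and E2f4 by 1.08 (SE 0.29, adjusted p = 0.0317), and with the replicate block 7 rose and 1, Dtl, fell, beside 12.1% and 13.6% of all genes.

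The third list held other nucleotide supply genes. After maternal deletion 10 of 21 fell and 2 rose, beside the same 26.4% and 30.3% of all genes, with a median log2 fold change of -1.04. Impdh1, which makes guanine nucleotides, fell by 3.53 and Umps, which makes pyrimidines, by 3.18, and Tk2 and Shmt2, which act in mitochondria, rose by 2.06 and 1.75. Against uninjected embryos 10 of 21 fell and 1, Rrm2b, rose after TrimAway, beside 10.4% and 17.5% of all genes. Against IgG 2 fell without the block, Impdh1 by 1.52 and Ctps by 0.57, and with it 10 fell and 1 rose, beside 13.6% and 12.1% of all genes.

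Some members share exonic bases with genes on the other strand, and the handling of strand is not given in the sources used here, so their reads cannot be told apart from those of the partner. Besides Fen1, the shares above 10% were those of Gins2, with 67.3% of its exonic bases shared with Gse1, Orc2 with 29.8% (Nif3l1), Rfc2 with 15.1% (Lat2), Rfc4 with 12.7% (Eif4a2), Orc1 with 10.8% (Gm12743) and Rfc5 with 10.7% (Wsb2). Shares under 10% were found for Mcm7 (7.25%, Ap4m1, and 1.45%, Cops6), Orc6 (6.93%), Orc4 (5.98%, Acvr2a), Cdc45 (5.96%, Ufd1), Lig1 (5.79%), Tk1 (1.60%) and Pole (0.699%).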

How the data were processed

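The authors deposited 2 tables of raw read counts per gene, 1 per experiment, from polyadenylated RNA of scNMT-seq, per the labels' protocols. Reads were trimmed with Trim Galore 0.6.5 and cutadapt 2.3 and aligned with HISAT2 2.1.0, per the submitters' processing notes, to GRCm38 with ERCC sequences, per the file headers. The counting program, annotation release, strand handling and treatment of reads that match several places are not given in the sources used here. Lines with the same gene identifier were summed. Odd low counts were more frequent than even ones (134662 values of 1, 30228 of 2, 84269 of 3 and 23199 of 4).

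Of 138 libraries, 3 were wells without an embryo, and 19 embryo libraries under 100000 counts were left out, among them all 6 IgG libraries of collection 2. No pair of libraries in a group agreed within sampling noise (at least 4.53 chi-square per degree of freedom). Depth of a group by collection is a median of 429979 to 4686051 counts. In the deletion experiment the collections lay on different lanes.

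Tests used edgeR 4.0.16 in R 4.3.3 (TMM, filterByExpr by group, robust quasi-likelihood test) on each comparison's own libraries, without the collection number, with Benjamini-Hochberg adjustment over all genes tested and a threshold of 0.05. The tests were checked on simulated data. DESeq2 1.42.0 was an alternative. CPM levels use TMM factors over the 116 libraries. The replicate block adds the collection number. The pairing comes from the labels, and deviations of same-numbered groups correlated at 0.50 (deletion and wild type), 0.58 (anti-SMARCA5 and IgG), 0.07 (anti-SMARCA5 and uninjected) and 0.42 (IgG and uninjected) across genes. Exon lengths come from GENCODE M21 of the same build, which has all 47 members and the same gene ends for 35.

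Members, lists, tests and the libraries doubted were chosen with earlier results of these data known. Named were up to 10 rises and 10 falls among called members, always Cdc45, and up to 2 rises and 2 falls of each further list. The other members named were chosen after their values were seen.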

Additional observations from a re-analysis of the deposited data

Results flagged for a closer look

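Orc1 stood out because its TrimAway effect differed between collections. The IgG libraries of collection 1 lack Trim21 RNA and most of those of collection 3 carry it, so collection and control cannot be told apart. The effect of anti-SMARCA5 against IgG was lower in collection 3 than in collection 1 by 2.90 on the log2 scale (value -2.90, SE 0.70, edgeR adjusted p = 0.0399). In collection 3, the anti-SMARCA5 libraries lay between 0.927 and 36.6 CPM and the IgG libraries between 5.25 and 127.5 CPM. In collection 1 they lay between 12.4 and 283 CPM and between 25.9 and 156 CPM. Over 5 alternatives the difference ran from -3.24 to -2.81, and it did not pass with a minimum depth of 500000 counts (adjusted p = 0.0563).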

How the results depend on the processing

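After maternal deletion 6 of the 18 called members passed under all 11 alternatives (Gmnn, Mcm6, Cdc45, Rpa2, Orc5 and Rpa1), 12 lost their call under 1 or more, and 0 changed direction. The count was 12 without either replicate, beside 39.9% of all genes without replicate 1 and 43.8% without replicate 2. Against uninjected embryos each of the 15 calls was lost under 1 or more of the alternatives. Leaving out replicates in turn gave 0 to 11 members. There were 0 without replicate 1, beside 1 of 10544 genes, and 11 without replicate 2, beside 2921 of 10283. Without replicate 3 there were 7, beside 2002 of 11142 genes. For anti-SMARCA5 against IgG, the count of 0 became 1 (Mcm6) with DESeq2, beside 999 of 10447 genes. With no filter on low counts it was 1, again Mcm6, beside 3010 of 22374 genes. When replicates were left out in turn it was 0 to 1, beside 0 to 591 genes called. With the replicate block it was 9, beside 2691 of 10447 genes. The block on replicates 1 and 3 only gave 9 again, beside 2835 of 10100 genes. The block with total counts gave 4, beside 1718 of 10447 genes. These last 2 were chosen after seeing the data. So was the replicate block without wells A04, G05 and H05, which called 19 members after deletion, beside 5208 of 8380 genes. IgG against uninjected gave 2 members with DESeq2, beside 206 of 9915 genes. In edgeR, Cdc45 in that comparison went from -0.11 to -0.42 without replicate 1 and 0.18 without replicate 3. The difference of the deletion effect between collections gave 1 member with DESeq2 (Gins4), beside 318 of 8518 genes. In edgeR it gave 1, Orc5 at 1.61, without wells A04, G05 and H05, where called genes went from 65 to 1060. The same difference for TrimAway gave 2 with DESeq2 (Orc1 and Rfc1), beside 298 of 10100 genes. At a minimum depth of 500000 it gave 0, beside 37 of 10157 genes. Deletion against TrimAway effects differed for 6 of 47 members with DESeq2 and with its size factors in edgeR (Mcm6, Orc5 and Cdc6 added). Of 12035 genes, 2974 and 2531 were called in these fits. The effects differed for 1 member at a minimum depth of 500000 (Mcm7), beside 1875 of 12841 genes. With the replicate block they differed for 1 (Gmnn), beside 1404 of 12035 genes. Total counts in place of TMM moved the median log2 fold change of all genes from 0.18 to -0.04 after deletion, from 0.13 to -0.29 against uninjected and from 0.04 to -0.10 against IgG. The causes were not tested. Gins3, which the filter on low counts left out after maternal deletion, was called with no filter (-3.26), at a minimum depth of 500000 (-3.11) and without replicate 1 (-3.18). It had 3 counts or fewer in 19 of 28 maternal deletion libraries, so these values are not read as the size of a fall.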
